A study of Mus musculus with 12 samples.

Results

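The 10 genes followed here across 4 groups are known repressors and activators of the embryonic globin genes: Bcl11a, Zbtb7a, Klf1, Sox6, Myb, Ikzf1, Nr2c1, Nr2c2, Mbd2 and Chd4. They were listed by name as known regulators, with earlier results of these data known. All 10 were found among the 55487 rows of each deposited table. The cells were G1E-ER4, a mouse erythroid progenitor line derived from embryonic stem cells without Gata1, to which GATA1 was returned as a fusion with the ligand-binding part of the estrogen receptor. Estradiol switches the fusion on, and the cells begin to mature. Every culture, controls included, received 100 nM β-estradiol and was harvested 24 h later. Control cells received nothing further, DTPA cells received 50 µM DTPA to lower zinc, DFO cells received 50 µM DFO to lower iron, and SA cells received 0.2 mM SA to inhibit the heme enzyme ALAD. The titles and tags of the last group name SA while its protocol text names DFO, and the titles were followed. Each group held 3 libraries, called biological replicates by the labels. The p-values rest on the spread within groups, pooled over the 4 groups and drawn toward that of genes of similar level. The line is clonal and carries GATA1 only as the estradiol-driven fusion, which limits it as a model of other erythroid cells.

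In the developing embryo the first red cells make embryonic globins, and later red cells make adult globins while the embryonic genes are held silent. BCL11A and ZBTB7A (LRF) are DNA-binding repressors that carry out this silencing, and both recruit the NuRD complex, in which CHD4 is the remodelling ATPase and MBD2 ties the complex to methylated DNA. NR2C1 and NR2C2 (TR2 and TR4) bind direct repeats in embryonic globin promoters, SOX6 works beside BCL11A, and IKZF1 (Ikaros), MYB and KLF1 act on the switch too, KLF1 by activating both the adult beta globin gene and Bcl11a.

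The letters that these factors read are shown for the promoters of 3 globin genes whose transcripts moved, and for the promoters of the best known pair of repressors. Of the 10 regulators 9 matched a promoter entry; Mbd2 did not, nor did the embryonic globin gene Hbb-bh1. Sequences are RefSeq's, build GRCm38.p6, and end at most 250 bases before the annotated start. Capitals mark TGACCA, the core letters bound by BCL11A, and TGACCT, the reverse complement of the nuclear receptor letters AGGTCA, in the embryonic gene Hbb-y (chr7:103853217-103853457, minus strand). They mark TGACCA in a 30-base stretch of the embryonic alpha-type gene Hba-x (chr11:32276548-32276577, plus strand) and CCACACCC, the letters bound by KLF1, in a 30-base stretch of the adult gene Hbb-bs (chr7:103828003-103828032, minus strand). In Bcl11a (chr11:24080445-24080669, plus strand) and Zbtb7a (chr10:81136021-81136270, plus strand) they mark CCNCNCCC on either strand, a looser form of the KLF1 letters in which N is any base.
Hbb-y: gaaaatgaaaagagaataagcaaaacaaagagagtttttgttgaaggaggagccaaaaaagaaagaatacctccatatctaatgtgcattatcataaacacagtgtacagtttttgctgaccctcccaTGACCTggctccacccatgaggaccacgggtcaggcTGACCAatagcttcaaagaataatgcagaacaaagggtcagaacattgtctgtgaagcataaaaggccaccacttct
Hba-x: ctgacaggtcccTGACCAtgtgtatataaa
Hbb-bs: attccgtagagCCACACCCtggtaagggcc
Bcl11a: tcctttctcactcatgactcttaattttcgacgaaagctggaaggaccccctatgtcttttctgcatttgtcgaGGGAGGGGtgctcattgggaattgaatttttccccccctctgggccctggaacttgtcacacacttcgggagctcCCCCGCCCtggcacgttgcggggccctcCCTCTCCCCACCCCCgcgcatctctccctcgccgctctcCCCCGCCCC
Zbtb7a: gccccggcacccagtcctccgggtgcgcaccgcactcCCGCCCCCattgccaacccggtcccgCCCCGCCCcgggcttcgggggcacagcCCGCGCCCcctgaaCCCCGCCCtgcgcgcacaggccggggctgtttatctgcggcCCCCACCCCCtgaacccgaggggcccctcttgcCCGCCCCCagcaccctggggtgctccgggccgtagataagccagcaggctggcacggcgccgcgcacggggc
Bases that the GENCODE M21 annotation places in an exon of the gene are left out, except in both 30-base stretches.

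Each motif was searched on both strands in the 250 bases before each of 32851 annotated mouse starts. TGACCA was present in 11.4% of these windows, AGGTCA in 14.0%, CCACACCC in 3.20% and CCNCNCCC, which contains CCACACCC as a special case, in 45.9%. The Hbb-y window held TGACCA 86 bases and AGGTCA, on the minus strand, 122 bases before the start, and its TGACCA runs into the CCAAT letters of the promoter. The Hba-x window held TGACCA 40 bases before the start, and the Hbb-bs window held CCACACCC 93 bases before it. The Bcl11a window held 8 matches to CCNCNCCC, of which 6 lie in the stretch printed, and 1.98% of all windows hold at least as many. The Zbtb7a window held 7 matches, some of them overlapping, and 2.98% of windows hold at least as many. The windows of Klf1 and Nr2c1 held none of the 4 motifs. A match is a description of letters and shows no binding.

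The 12 libraries were similar in depth. The spacing of low values gave between 19860147 and 24329315 reads on genes per library, with 1 read per kilobase of exon worth 0.124 to 0.160 TPM. TPM are corrected for gene length, so levels can be set side by side between genes. The 10 erythroid markers, among them Alas2 and Slc4a1, were all present, with summed levels of 4833 to 5025 TPM in control, 4402 to 4449 TPM with DTPA, 4827 to 4866 TPM with DFO and 4270 to 4320 TPM with SA. In the test described further on, 8 of the 10 were lower and 2 higher with DTPA (median log2 fold change -0.95, where that of all genes was -0.11), 4 lower and 1 higher with DFO, and 5 lower and 0 higher with SA. Of all genes 42.1% were lower and 23.5% higher with DTPA, 2.28% and 8.39% with DFO, and 6.75% and 15.4% with SA. The 14 mast and myeloid markers summed to 0.352 to 0.502 TPM in control, 2.60 to 3.59 TPM with DTPA, 0.698 to 0.931 TPM with DFO and 0.748 to 1.03 TPM with SA. The 14 lymphoid markers summed to 0.438 to 0.757 TPM in control, 1.37 to 2.04 TPM with DTPA, 0.462 to 0.777 TPM with DFO and 0.542 to 0.937 TPM with SA. Both sums were thus low but highest with DTPA, and Mpo, Lyz2 and Cd3g were at 0 throughout. The 12 megakaryocyte markers summed to 161 to 171 TPM in control, 256 to 268 TPM with DTPA, 128 to 129 TPM with DFO and 129 to 135 TPM with SA, most of it Tubb1, while Gp1bb, Gp6 and Ppbp were at 0 throughout. In bulk RNA such as this, fewer cells of a type and less RNA per cell cannot be told apart.

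The order of the 10 regulators was the same in all 3 control libraries. Klf1 was highest at 660.7 TPM (mean of 3), followed by Mbd2 at 164, Ikzf1 at 118, Chd4 at 103, Zbtb7a at 36.1, Nr2c2 at 18.2, Nr2c1 at 16.1, Bcl11a at 6.22, Myb at 0.622 and Sox6 at 0.0460 TPM. No neighbours in that order overlapped between libraries. With DTPA, Chd4 (97.9 TPM) and Ikzf1 (95.6 TPM) exchanged places and their libraries overlapped, and with DFO and with SA the libraries of Nr2c2 and Nr2c1 overlapped. The NuRD subunits Mbd2 and Chd4 were thus more abundant as transcripts than the DNA-binding repressors Zbtb7a, Bcl11a, Nr2c1 and Nr2c2 in every library. This did not extend to Ikzf1, also a DNA-binding factor, which lay below Mbd2 but above Chd4 in control, DFO and SA.

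**Figure D1:**
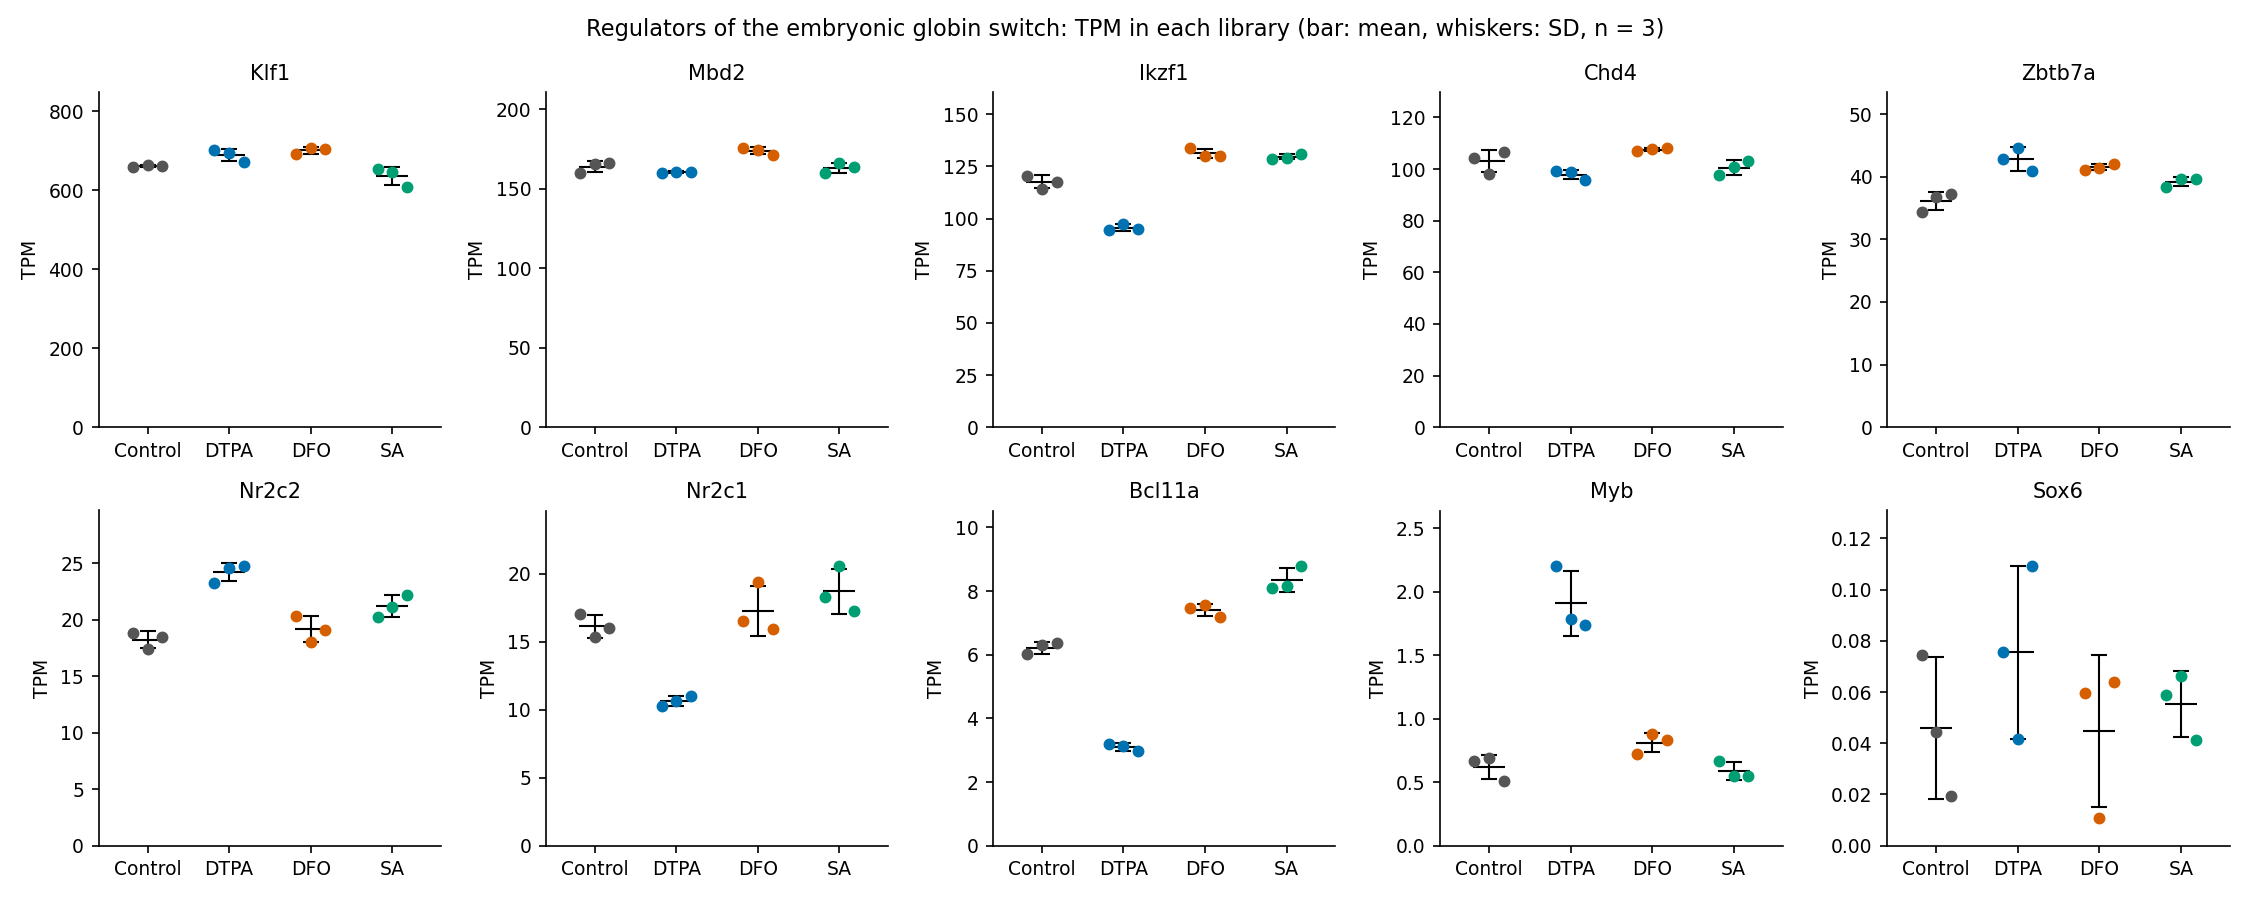
TPM of the 10 regulators (vertical axes, each starting at 0) in the 3 libraries of control, DTPA, DFO and SA, with 1 panel per gene, ordered by control level. Points are libraries, bars are group means and whiskers the SD. Bcl11a lies near 3.1 TPM with DTPA and between 6.01 and 8.78 TPM in the other groups, while Klf1 stays between 609 and 707 TPM.

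Each treatment was compared with control to ask whether low zinc, low iron or ALAD inhibition moved these regulators. Limma was fitted to log2(TPM + 1) of the 11917 genes that reached 1 TPM in 3 or more libraries. The p-values were adjusted over all of these genes by the method of Benjamini and Hochberg, with a threshold of 0.05. A gene is said to be called where it passed. Log2 fold changes on this scale understate the change of low genes, and 95% intervals are for single genes, not adjusted for their number. The 3 comparisons share the same control libraries, so they are not independent of each other. Of the 10 regulators 9 entered the test. Sox6 did not pass the filter. Myb passed only through the DTPA libraries, where it was high, so it is left out of the counts below, which cover the other 8.

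With DTPA, 5 of these 8 regulators were called, 2 higher (Zbtb7a and Nr2c2) and 3 lower (Bcl11a, Ikzf1 and Nr2c1). Of all tested genes 65.5% were called in this comparison, 23.5% higher and 42.1% lower, so the count among the regulators was near the background. In 6 of the 8 the DTPA and control libraries did not overlap, against 69.6% of all tested genes. The median log2 fold change of all genes was -0.11, and median-of-ratios scaling raised it by 0.12. Under that scaling 4 regulators were higher and 3 lower, against 32.4% and 32.2% of all genes, with Klf1 and Mbd2 joining those called higher. The part of the fall of the erythroid markers with DTPA in these changes was not tested.

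With DFO, 4 of 8 regulators were called, all higher (Bcl11a, Zbtb7a, Ikzf1 and Mbd2), where 10.7% of all genes were called, 8.39% higher and 2.28% lower. The control and DFO libraries did not overlap in 6 of 8, against 30.2% of all genes. Only the call of Ikzf1 held under median-of-ratios scaling, which left 1 regulator higher and 0 lower, against 3.56% and 5.35% of all genes. The count was 2 without control library 1, without DFO library 1 or without DFO library 2. All genes called with DFO went from 1272 to between 840 and 960 when a library was left out. With SA, 3 of 8 were called, all higher (Bcl11a, Ikzf1 and Nr2c2), where 22.2% of all genes were called, 15.4% higher and 6.75% lower, and 6 of 8 did not overlap, against 38.5%. With SA, median-of-ratios scaling gave 3 higher and 1 lower (Klf1), against 9.80% and 13.1% of all genes. The count of 3 fell to 2 without control library 2 or SA library 3. The count of all genes called with SA fell as well, from 2642 to between 2039 and 2217 when a library was left out.

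**Figure D2:**
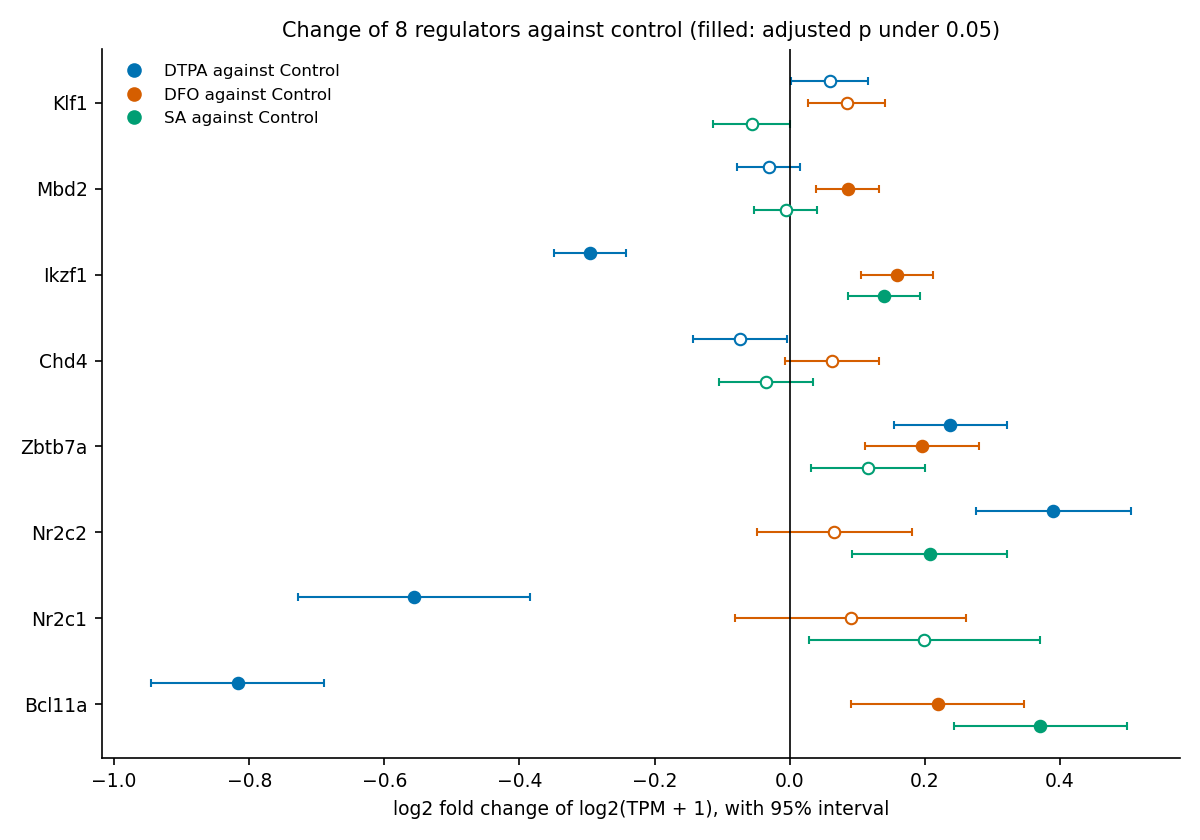
Log2 fold change of log2(TPM + 1) against control (horizontal axis) for 8 regulators, Myb and Sox6 left out, with points for DTPA, DFO and SA and lines for the 95% interval from limma. Filled points have an adjusted p under 0.05. Bcl11a, Nr2c1 and Ikzf1 lie left of 0 with DTPA, at -0.82, -0.56 and -0.30, and right of 0 with DFO and SA.

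Bcl11a, the principal repressor of embryonic and fetal globin in adult red cells, was the regulator with the largest fall with DTPA and rose with SA. Its control libraries held 6.01, 6.30 and 6.36 TPM and its DTPA libraries 3.21, 3.12 and 2.97 TPM. The DFO libraries held 7.46, 7.55 and 7.20 TPM and the SA libraries 8.09, 8.17 and 8.78 TPM. The 4 groups did not overlap anywhere, in the order DTPA, control, DFO and SA. The mean fell with DTPA from 6.22 ± 0.190 to 3.10 ± 0.123 TPM (SD, n = 3), a ratio of 0.498. On the log2 scale the difference was -0.82 (SE 0.0582, limma adjusted p = 1.49e-07). With SA the mean rose 1.34-fold, by 0.37 on the log2 scale (SE 0.0582, adjusted p = 0.000951). The rise with DFO was 1.19-fold (0.22 on the log2 scale, adjusted p = 0.0361), but the call was lost under both other scalings (0.17, adjusted p = 0.10) and when any single control or DFO library was left out (adjusted p 0.066 to 0.11).

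The 12 libraries counted between 301 and 768 reads on Bcl11a. Bcl11a is a protein-coding gene on chromosome 11, plus strand, from 24078056 to 24174123 (mm10), with 7 merged exons. Between treatments, Bcl11a was lower with DTPA than with DFO by 1.04 on the log2 scale (-1.04, adjusted p = 1.87e-08) and lower than with SA (-1.19, adjusted p = 5.43e-09). The difference between DFO and SA was -0.15 (95% interval -0.28 to -0.02, adjusted p = 0.116), with no overlap between the libraries, and it passed in a voom fit of recovered reads (-0.18, adjusted p = 0.016).

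Zbtb7a, which encodes LRF, the second main repressor of fetal globin, moved the other way with DTPA. Control libraries held 34.4, 36.7 and 37.2 TPM, DTPA libraries 42.9, 44.6 and 40.9 TPM, DFO libraries 41.1, 41.4 and 42.0 TPM, and SA libraries 38.4, 39.6 and 39.6 TPM. Every treated library lay above every control library. The log2 fold change was 0.24 with DTPA (SE 0.0381, adjusted p = 0.000168) and 0.20 with DFO (adjusted p = 0.00839). Median-of-ratios scaling made the latter 0.14, with adjusted p = 0.056. With SA it was 0.12, which did not pass (95% interval 0.03 to 0.20, adjusted p = 0.0505). Zbtb7a lies on chromosome 10, plus strand, from 81135220 to 81152995.

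Because both repressors changed in opposite directions with DTPA, their ratio within a library moved further than either. Zbtb7a over Bcl11a was 5.80 ± 0.0661 in control (mean ± SD of 3 library ratios), 13.8 ± 0.457 with DTPA, 5.61 ± 0.200 with DFO and 4.70 ± 0.170 with SA. The DTPA ratios of 13.4, 14.3 and 13.8 lay above every other library, and the SA ratios of 4.74, 4.85 and 4.52 below every other library. Such a ratio does not depend on the scaling of a library, and it was not tested.

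**Figure D3:**
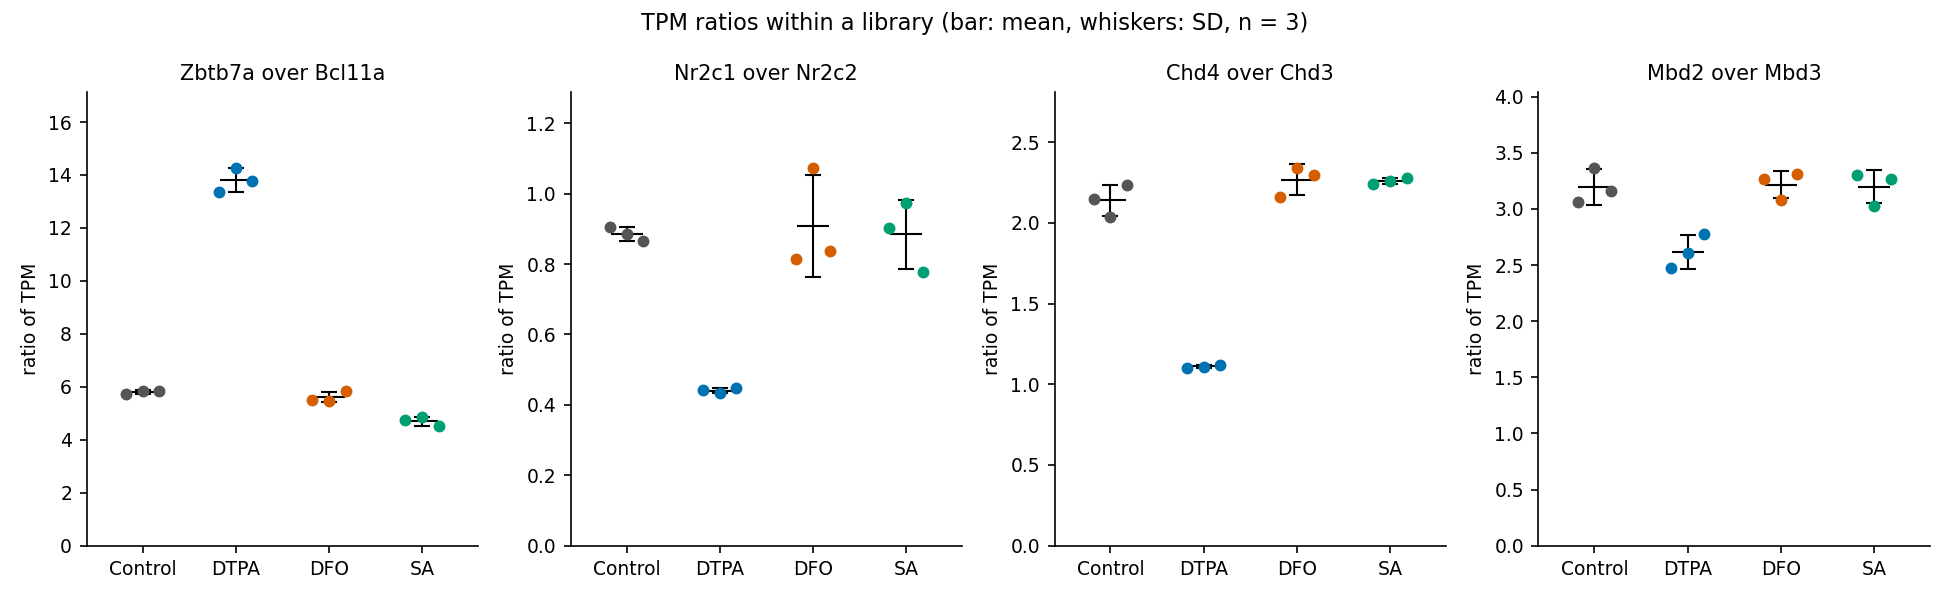
Ratio of TPM within each library (vertical axes, starting at 0) for 4 pairs: Zbtb7a over Bcl11a, Nr2c1 over Nr2c2, Chd4 over Chd3 and Mbd2 over Mbd3. Points are libraries of control, DTPA, DFO and SA, bars means and whiskers the SD (n = 3). In each panel the DTPA libraries stand apart from the control libraries, higher in the first (13.8 against 5.80) and lower in the other 3.

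Nr2c1 and Nr2c2 encode the orphan nuclear receptors TR2 and TR4, which pair with each other on the embryonic globin promoters. Nr2c1 held 17.1, 15.4 and 16.0 TPM in control and 10.3, 10.6 and 11.0 TPM with DTPA, with no overlap. The DFO libraries held 16.6, 19.4 and 15.9 TPM and the SA libraries 18.3, 20.6 and 17.3 TPM. Nr2c1 fell with DTPA by 0.56 on the log2 scale (SE 0.0778, adjusted p = 5.55e-05). The difference was 0.09 with DFO (95% interval -0.08 to 0.26, adjusted p = 0.525) and 0.20 with SA (95% interval 0.03 to 0.37, adjusted p = 0.0934), and neither passed.

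Nr2c2 rose with DTPA. It held 18.9, 17.4 and 18.5 TPM in control, 23.3, 24.6 and 24.7 TPM with DTPA, 20.3, 18.0 and 19.1 TPM with DFO, and 20.3, 21.1 and 22.2 TPM with SA. The DTPA libraries lay above all others. The log2 fold change was 0.39 with DTPA (SE 0.0521, adjusted p = 3.75e-05), 0.07 with DFO (95% interval -0.05 to 0.18, adjusted p = 0.480) and 0.21 with SA (adjusted p = 0.0154). The SA call was lost without control library 2 (0.17, adjusted p = 0.059) or without SA library 3 (0.17, adjusted p = 0.061).

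Exons of Nr2c2 share 4590 bp, 30.7% of their length, with Mrps25 on the opposite strand, a mitochondrial ribosomal protein gene at 7.88 to 12.6 TPM. Libraries were made with a stranded kit, but the strand setting of the counting is not given in the sources used here, so reads of the shared stretch may belong to either gene. Mrps25 moved against Nr2c2 with DTPA, from 10.7 ± 1.02 to 8.40 ± 0.543 TPM. The ratio of Nr2c1 to Nr2c2 was 0.905, 0.884 and 0.867 in the control libraries and 0.441, 0.433 and 0.447 with DTPA. It was 0.909 ± 0.144 with DFO and 0.885 ± 0.0983 with SA, where the libraries overlapped those of control. Nr2c1 lies on chromosome 10, plus strand, from 94148023 to 94197211, and Nr2c2 on chromosome 6, plus strand, from 92091390 to 92174294.

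Ikzf1 encodes Ikaros, a zinc finger factor that joins NuRD to DNA and takes part in the silencing of early globin genes. Its control libraries held 121, 114 and 118 TPM and its DTPA libraries 94.3, 97.6 and 94.98 TPM. The DFO libraries held 134, 130.1 and 129.9 TPM and the SA libraries 129, 129 and 131 TPM. All DTPA libraries lay below and all DFO and SA libraries above the control range. The log2 fold change was -0.30 with DTPA (SE 0.0242, adjusted p = 5.30e-07), 0.16 with DFO (adjusted p = 0.00231) and 0.14 with SA (adjusted p = 0.00183). All 3 calls held under median-of-ratios scaling, at -0.16, 0.10 and 0.09. DFO and SA differed from each other by 0.02 (95% interval -0.03 to 0.07, adjusted p = 0.673). Ikzf1 lies on chromosome 11, plus strand, from 11685003 to 11772926.

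Klf1, the erythroid Krüppel-like factor that activates adult beta globin, was the most abundant regulator. It held 659, 663 and 660.3 TPM in control, 701, 694 and 670.3 TPM with DTPA, 690.9, 707 and 704 TPM with DFO, and 652, 646 and 609 TPM with SA. The DTPA and DFO libraries lay above and the SA libraries below the narrow control range. No difference from control passed: 0.06 with DTPA (95% interval 0.00 to 0.12, adjusted p = 0.0650), 0.08 with DFO (0.03 to 0.14, adjusted p = 0.0632) and -0.06 with SA (-0.11 to 0.00, adjusted p = 0.152). Under median-of-ratios scaling Klf1 was called higher with DTPA (0.19, adjusted p = 0.00026) and lower with SA (-0.11, adjusted p = 0.033). The DTPA difference also passed under trimmed-mean scaling (0.19, adjusted p = 0.00026), with globin genes removed (0.08, adjusted p = 0.018) and without DTPA library 3 (0.08, adjusted p = 0.027). It passed in a voom fit of recovered reads too (0.13, adjusted p = 8.3e-05), and under the other alternatives it did not. The DFO difference passed from only the 6 libraries compared (0.08, limma adjusted p = 0.039), but was 0.03 (adjusted p = 0.65) under median-of-ratios scaling. Klf1 was higher with DTPA than with SA (0.12, adjusted p = 0.00196) and higher with DFO than with SA (0.14, adjusted p = 0.00455). It lies on chromosome 8, plus strand, from 84901928 to 84905291.

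Of 16 tested genes that KLF1 is known to activate (of 20 listed) 13 fell and 3 rose with DTPA, where 42.1% of all genes were called lower and 23.5% higher. Their median log2 fold change was -0.69 where the median of all genes was -0.11, and rescaling by median of ratios left 3 higher and 12 lower, against 32.4% and 32.2% of all genes. Slc4a1, which encodes the membrane anion exchanger band 3, fell by 3.95 on the log2 scale to 45.5 ± 3.32 TPM. E2f2, a cell cycle factor, fell by 2.35 to 6.20 ± 0.203 TPM, and Dmtn, an actin-binding membrane skeleton gene, by 2.32 to 9.92 ± 0.919 TPM. With DFO 8 of the 16 fell, 2 rose and 6 did not pass (median -0.09), where 2.28% of all genes were called lower and 8.39% higher. With SA 6 fell, 2 rose and 8 did not pass (median -0.04), where 6.75% were called lower and 15.4% higher. The median of all genes was 0.05 in both, and rescaling gave 9 lower and 1 higher with DFO (5.35% and 3.56% of all genes) and 8 lower and 2 higher with SA (13.1% and 9.80%).

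Myb and Sox6 were near the floor of the measurement. MYB holds erythroid progenitors in cycle, and lowering it raises fetal globin in human cells. Myb held 0.664, 0.691 and 0.512 TPM in control (32 to 47 reads) and 2.20, 1.78 and 1.74 TPM with DTPA (125 to 140 reads). The DFO libraries held 0.726, 0.878 and 0.834 TPM and the SA libraries 0.668, 0.549 and 0.548 TPM. The DTPA libraries lay above all others, which were all under 1 TPM. The mean with DTPA was 3.07-fold that of control. Because Myb passed the filter only through those libraries, its test is taken from the limma fit without a filter, where the log2 fold change was 0.84 (SE 0.0854, adjusted p = 1.61e-05). Differences in that fit with DFO (0.16, 95% interval -0.03 to 0.35, adjusted p = 0.413) and SA (-0.03, 95% interval -0.22 to 0.16, adjusted p = 0.944) did not pass. Sox6, partner of BCL11A at the embryonic genes, held 0.0108 to 0.109 TPM in the 12 libraries, with 1 to 13 reads each, and no difference could be resolved at this depth. Myb lies on chromosome 10, minus strand, from 21124935 to 21160984, and Sox6 on chromosome 7, minus strand, from 115470872 to 116038796.

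Mbd2 and Chd4 are the NuRD subunits among the 10. Mbd2 held 160.0, 165 and 166 TPM in control, 159.8, 161 and 160.5 TPM with DTPA, 176, 175 and 172 TPM with DFO, and 160.0, 166 and 163 TPM with SA. The DFO libraries lay above the control range and the other groups overlapped it. The rise with DFO was 0.09 on the log2 scale (SE 0.0212, adjusted p = 0.0262), which fell to 0.03 (adjusted p = 0.49) under median-of-ratios scaling and lost its call without control library 1, DFO library 1 or DFO library 2 (adjusted p 0.078 to 0.086). The difference with DTPA was -0.03 (95% interval -0.08 to 0.02, adjusted p = 0.223), and that scaling turned it to 0.10 (adjusted p = 0.0026), so its direction holds only relative to the scaling. With SA it was -0.01 (95% interval -0.05 to 0.04, adjusted p = 0.880). Mbd2 lies on chromosome 18, plus strand, from 70568189 to 70626131.

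Chd4 held 104, 98.3 and 107 TPM in control, 99.1, 98.9 and 95.7 TPM with DTPA, 107, 108 and 108 TPM with DFO, and 97.6, 101 and 103 TPM with SA. The DFO libraries lay just above the control range and the other groups overlapped it. No difference passed: -0.07 with DTPA (95% interval -0.14 to 0.00, adjusted p = 0.0620), 0.06 with DFO (-0.01 to 0.13, adjusted p = 0.251) and -0.04 with SA (-0.10 to 0.03, adjusted p = 0.478). Median-of-ratios scaling turned the DTPA difference to 0.06 (adjusted p = 0.095), and it passed without control library 2 (-0.11, adjusted p = 0.0071). Chd4 lies on chromosome 6, plus strand, from 125095981 to 125130591.

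The close relatives that can take the place of these subunits in NuRD moved more with DTPA. Chd3, the alternative remodelling ATPase, rose 1.83-fold to 88.2 ± 2.40 TPM from 48.2 ± 0.397 TPM (0.86 on the log2 scale, adjusted p = 4.20e-10), and the ratio of Chd4 to Chd3 went from 2.14 ± 0.0980 to 1.11 ± 0.00911. That ratio was 2.27 ± 0.0941 with DFO and 2.26 ± 0.0176 with SA. Mbd3, whose product takes the place of MBD2 in a separate form of the complex, rose from 51.3 ± 1.95 to 61.4 ± 3.45 TPM (0.25, adjusted p = 0.00171). The ratio of Mbd2 to Mbd3 was 3.20 ± 0.158 in control, 2.62 ± 0.153 with DTPA, 3.22 ± 0.124 with DFO and 3.20 ± 0.151 with SA.

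Of 12 tested NuRD subunits other than the 10 regulators (of 13 listed), 4 rose, 6 fell and 2 did not pass with DTPA (median -0.09), where 23.5% of all genes rose and 42.1% fell, and rescaling made this 5 higher and 4 lower (32.4% and 32.2% of all genes). The histone-binding subunit Rbbp7 fell by 0.66 and its relative Rbbp4 by 0.40, and the deacetylase gene Hdac1 fell by 0.40, from 47.2 ± 1.90 to 35.5 ± 0.291 TPM. With DFO 1 rose, Mta1 (0.26), and 11 did not pass, where 8.39% of all genes rose and 2.28% fell. Rescaling gave 1 higher and 1 lower, against 3.56% and 5.35%. With SA 2 rose, 3 fell and 7 did not pass, where 15.4% of all genes rose and 6.75% fell. Rescaling gave 0 higher and 3 lower, against 9.80% and 13.1%. Rbbp7 fell with SA by 0.25.

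Of 17 tested other corepressors known at globin genes (of 20 listed) 12 fell, 2 rose and 3 did not pass with DTPA, with a median of -0.35, where 42.1% of all genes fell and 23.5% rose. Rescaling gave 9 lower and 5 higher, against 32.2% and 32.4%. Dnmt1, the maintenance DNA methyltransferase, fell to 36.7 ± 1.04 TPM from 63.6 ± 2.36 TPM (-0.78 on the log2 scale, adjusted p = 1.21e-09). The Polycomb gene Bmi1 fell by 0.58, the remodelling ATPase gene Smarca4 by 0.56 and the arginine methyltransferase gene Prmt5 by 0.55. With DFO 2 rose (Ehmt2, 0.17, and Rnf2, 0.14) and 15 did not pass, where 8.39% of all genes rose and 2.28% fell. Rescaling gave 0 higher and 1 lower, against 3.56% and 5.35%. With SA 4 rose, 2 fell and 11 did not pass, where 15.4% of all genes rose and 6.75% fell. Rescaling gave 2 higher and 3 lower, against 9.80% and 13.1%. With SA Prmt5 was at 0.28 and Dnmt1 at -0.19.

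Among 21 tested other regulators of the switch (of 27 listed) 12 fell, 5 rose and 4 did not pass with DTPA (median -0.18), where 42.1% of all genes fell and 23.5% rose. Rescaling made this 10 lower and 7 higher, against 32.2% and 32.4%. Nfyb, a subunit of the CCAAT-binding factor NF-Y, fell from 42.9 ± 2.27 to 21.9 ± 1.21 TPM (-0.94, adjusted p = 2.37e-08), and the RNA-binding protein gene Igf2bp3 fell by 0.62. Ctcf, the insulator factor, fell by 0.50, and Zfp410, whose product maintains Chd4 transcription, fell by 0.49 from 37.8 ± 0.564 to 26.7 ± 0.392 TPM while Chd4 itself did not pass. With DFO 1 rose, Atf4 (0.28), and 20 did not pass, where 8.39% of all genes rose and 2.28% fell. Rescaling gave 1 higher and 2 lower, against 3.56% and 5.35%. With SA 1 rose, 1 fell and 19 did not pass, where 15.4% of all genes rose and 6.75% fell. Rescaling gave 1 higher and 5 lower, against 9.80% and 13.1%. Atf4, the integrated stress response factor, rose with SA from 99.9 ± 4.43 to 149 ± 3.71 TPM (0.58, limma adjusted p = 6.79e-07). Eif2ak1, the heme-regulated kinase upstream of it, fell with SA by 0.07.

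The factors that work with GATA1 and KLF1 at erythroid genes moved both ways. Of 19 tested (of 20 listed) 7 rose, 9 fell and 3 did not pass with DTPA, where 23.5% of all genes rose and 42.1% fell. Rescaling made this 11 higher and 7 lower, against 32.4% and 32.2%. Spi1, an antagonist of GATA1, rose by 1.60 and the repressor gene Gfi1b by 1.44, while Gata1 reads fell by 1.24, from 2501 to 1058 TPM, and cannot be split between the fusion and the disrupted locus. The megakaryocyte markers Itgb3 and Gp1ba were higher with DTPA too, at 16.9 and 18.5 TPM against 2.15 and 4.30 TPM, and the part of such cells in the changes of the regulators was not tested. With DFO 5 fell, 1 rose and 13 did not pass, where 2.28% of all genes fell and 8.39% rose. Rescaling gave 6 lower and 0 higher, against 5.35% and 3.56%. With SA 8 rose, led by Gata2 (0.42), 4 fell and 7 did not pass, where 15.4% of all genes rose and 6.75% fell. Rescaling gave 8 higher and 6 lower, against 9.80% and 13.1%.

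The transcripts of the globin genes are given beside their regulators. Hbb-bh1 and Hbb-y, the embryonic beta-like genes, together held 0.469%, 0.400% and 0.428% of the beta-like globin TPM in the control libraries. They held 19.4%, 21.4% and 25.0% with DTPA, 0.331%, 0.252% and 0.255% with DFO, and 0.150%, 0.120% and 0.117% with SA. The groups did not overlap: the order from high to low was DTPA, control, DFO and SA, the reverse of the order of Bcl11a. That order is not particular to Bcl11a. The means of Nr2c1 followed it too, at 10.7, 16.1, 17.3 and 18.7 TPM in DTPA, control, DFO and SA, with overlap between libraries. The step of Bcl11a from control to DFO lost its call when any single library of either group was left out. With 4 groups these orders are a description of group means and no test was made of them. The sum in the denominator includes Hbb-bt, which varied widely between DTPA libraries (2782 to 11222 TPM). Without it the shares were 0.492% ± 0.0312, 25.4% ± 1.63, 0.310% ± 0.0471 and 0.157% ± 0.0205 in the same order of control, DTPA, DFO and SA (SD, n = 3).

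The adult gene Hbb-bs, a near copy of Hbb-bt, rose with DTPA as well, from 19234 to 26214 TPM (0.45 on the log2 scale, limma adjusted p = 2.90e-05). With DFO and SA Hbb-bs fell to 11975 and 7452 TPM, but the embryonic genes fell further. Hbb-y went from 14.9 ± 1.40 TPM in control to 6.30 ± 2.61 TPM with DFO and 0.543 ± 0.158 TPM with SA. Between DFO and SA, Hbb-y differed by 2.17 (adjusted p = 9.28e-05) and Hbb-bh1 by 1.38 on the log2 scale (adjusted p = 5.83e-06), both higher with DFO.

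**Figure D4:**
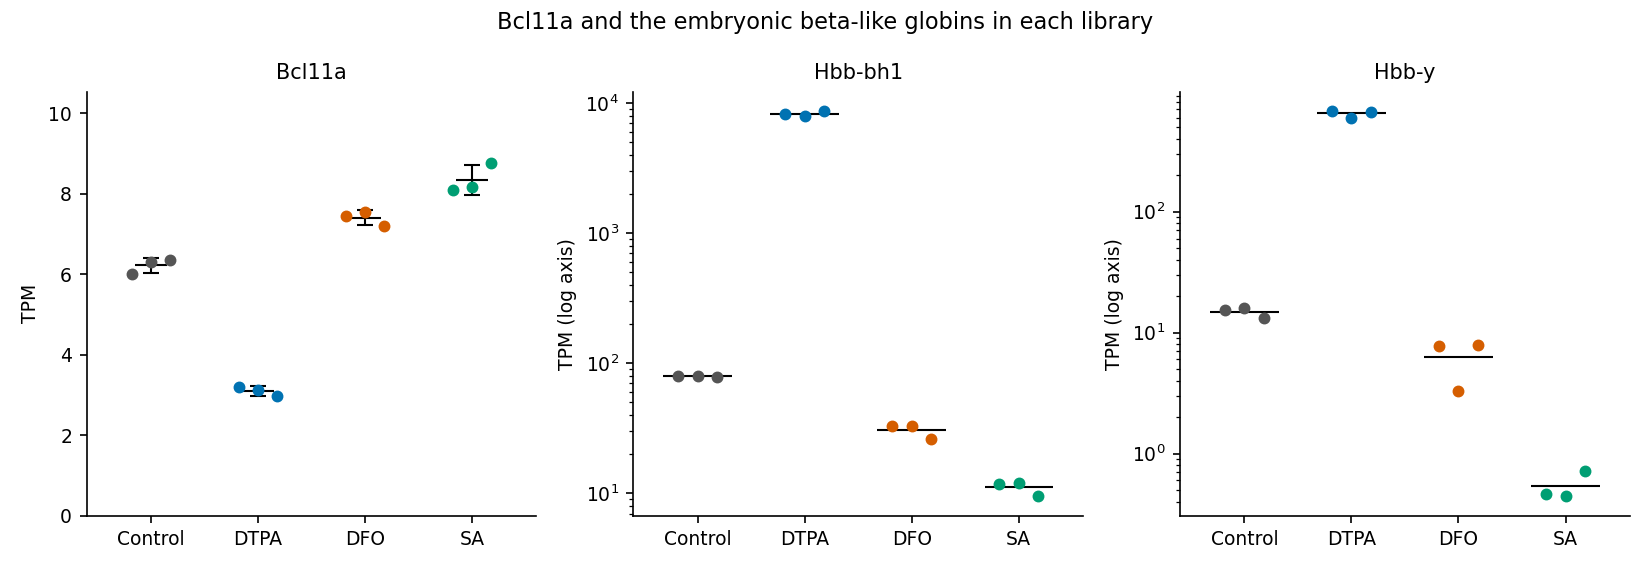
TPM of Bcl11a (left, linear axis from 0) and of the embryonic beta-like globins Hbb-bh1 and Hbb-y (middle and right, log axes) in the 3 libraries of each group, with group means as bars and, for Bcl11a, SD whiskers. Bcl11a is lowest with DTPA (3.10 TPM) and highest with SA (8.34 TPM), and Hbb-bh1 is highest with DTPA (8285 TPM) and lowest with SA (11.2 TPM).

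The treatments were also compared with each other. Between DTPA and DFO 6 of 8 regulators (Myb again left out) were called, 1 higher and 5 lower with DTPA, where 65.9% of all genes were called, 19.6% higher and 46.4% lower. Between DTPA and SA 6 of 8 were called, 3 higher and 3 lower, where 67.1% of all genes were, 20.1% higher and 47.0% lower. The median of all genes lay at -0.16 and -0.17 in these comparisons. The directions of Mbd2 and Chd4 in both, and of Klf1 against DFO, turned under median-of-ratios scaling. That scaling called 4 higher and 3 lower against DFO and 5 higher and 3 lower against SA. The share of all genes under it is not given for these comparisons, so the rescaled counts cannot be set against a background. Between DFO and SA 2 of 8 were called, Klf1 and Mbd2, both higher with DFO, where 13.5% of all genes were called, 7.22% higher and 6.30% lower. Without DFO library 1, DFO library 2 or SA library 1 only Klf1 was called (1 of 8). All genes called between DFO and SA went from 1611 to between 1134 and 1207 when a library was left out. The voom fit called 5, and the share of all genes in that fit is not given.

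Only Bcl11a spanned at least 1 on the log2(TPM + 1) scale between its lowest and highest group mean (1.19), and for Bcl11a the most similar genes were sought. That scale understates low genes. Myb spanned 0.87 on it, though its mean went from 0.588 TPM with SA to 1.91 TPM with DTPA, a wider change in proportion than that of Bcl11a. Over the 12 libraries the highest Pearson correlations of log2(TPM + 1) with Bcl11a were those of Slc7a1, a cationic amino acid transporter gene (0.995, 15.4, 6.18, 17.8 and 21.8 TPM in control, DTPA, DFO and SA), Cnppd1 (0.995) and Fam57a (0.994). The libraries form 4 groups of 3, so these values mostly restate the order of the group means.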

How the data were processed

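Polyadenylated RNA of the 12 cultures was sequenced from stranded mRNA libraries, per the labels' protocols. What the authors deposited is a TPM table for each library, whose 55487 rows carry gene symbols. The submitters' processing notes list HISAT2 2.1.0, featureCounts, edgeR, Trimmomatic 0.33 and FastQC, and the build mm10. Which settings and annotation were used is not given in the sources. Of 114 symbols that occur more than once (234 rows), the row with the highest mean was kept.

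Reads were recovered from the TPM steps with GENCODE M21 exon lengths, found for 96.1% of rows (53186); 98.8% to 99.0% of values up to 200 reads came out whole within 0.1 read. Replicate libraries differed beyond sampling noise in all 12 pairs (chi-square per degree of freedom 2.04 to 5.61), so each counted as 1 replicate. The fit used limma 3.58.1 in R 4.3.3 on log2(TPM + 1), 1 mean per group, a mean-variance trend and the filter of 1 TPM in 3 libraries, and was tested on simulated data. Tables were made with Python 3.11.15, numpy 2.4.6 and pandas 2.3.3, and plots with matplotlib 3.10.9.

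The regulators and gene lists were chosen with earlier results of these data known. All 10 regulators were named in every comparison, and counts cover the 8 that passed the filter whichever group was left out. From each list at most 4 called genes with a mean of at least 5 TPM and the largest changes could be named; a few named relatives were chosen after their values were seen (Mbd3, Mrps25). Alternatives were other scalings, pseudocounts of 0.1 and 5, no filter or a filter of 5 TPM, globin genes removed, a robust fit, only the 6 libraries compared, a replicate block and each library left out. A voom fit of recovered reads, for genes with 10 reads in 3 libraries, and the leave-one-out ratios were added after the data were seen.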

Additional observations from a re-analysis of the deposited data

How the results depend on the processing

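Of the values of the 9 tested regulators recomputed under the alternatives, 838 kept their direction and their side of the threshold, 31 lost the call, 17 gained it and 26 changed sign. These totals include Myb, which passed the filter only through the DTPA libraries, so its values with DTPA are no evidence of stability. With SA against control, leaving out a library gave -0.023 to 0.0080 for Mbd2 (above 0 without control library 2, control library 3 or SA library 1) and -0.079 to 0.0011 for Myb (above 0 without control library 2). The other sign changes concerned Klf1, Mbd2 and Chd4 in comparisons with DTPA. Under median-of-ratios and trimmed-mean scaling Mbd2 was 0.10 and 0.10 for DTPA against control, 0.073 and 0.072 against DFO, and 0.16 and 0.16 against SA. Chd4 was 0.062 and 0.061 against control, 0.053 and 0.053 against DFO, and 0.15 and 0.15 against SA, and Klf1 was 0.17 and 0.16 against DFO. Voom gave 0.071 for Klf1 against DFO, 0.044 and 0.067 for Mbd2 against control and SA, and 0.0021 and 0.054 for Chd4 against control and SA. With globin genes removed Klf1 was 0.018 against DFO, and Mbd2 and Chd4 were 0.024 and 0.011 against SA. The count of regulators called with DFO against control, 4, became 1 under median-of-ratios scaling, 1 under trimmed-mean scaling and 2 with globin genes removed, and 2 to 3 when a library was left out. The share of all genes called is not given for trimmed-mean scaling or with globin genes removed. Between DFO and SA the count of 2 was 1 to 2 when a library was left out and 5 with voom. The cause was not tested. Over all genes, the 1272 called with DFO became 802 from only the 6 libraries compared and 840 to 960 when a library was left out (840, 844 and 847 without a DFO library). Without Hbb-bt the embryonic share of beta-like globin TPM was 0.492% in control, 25.4% with DTPA and 0.157% with SA. No filter, pseudocounts of 0.1 or 5 and the robust fit changed no count of called regulators by over 1.5 times.

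The replicate numbers did not pair the libraries. Deviations of libraries with the same number correlated between -0.04 and 0.05, and 6 of 12 libraries correlated best with their own number. With the replicate block 5, 3 and 3 of 8 regulators were called for DTPA, DFO and SA against control, 6, 6 and 2 between treatments, and Bcl11a with DFO lost its call (0.22, adjusted p = 0.07). The share of all genes called with the block is not given, so these counts cannot be set against a background. TPM hold relative levels only, so a change of total RNA per cell is not seen. Sox6 (at most 13 reads per library) and Myb (32 to 55 reads outside DTPA) are limited by depth.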

Other observations

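Relatives of the regulators that are expressed in these cells moved both ways with DTPA. Of 33 listed relatives 16 were tested, and 7 rose, 7 fell and 2 did not pass (median log2 fold change 0.12, where that of all genes was -0.11 and 23.5% of all genes rose and 42.1% fell). Rescaling by median of ratios made this 8 higher and 7 lower, against 32.4% and 32.2% of all genes. The Krüppel-like factor gene Klf9 fell from 10.8 ± 0.332 to 5.81 ± 0.312 TPM (SD, n = 3), and Klf3, a KLF1 target that encodes a repressor, fell from 69.6 ± 1.40 to 40.2 ± 1.60 TPM. Klf13 rose from 104 ± 0.687 to 178 ± 3.55 TPM, and Zbtb7b, a relative of Zbtb7a, rose from 13.4 ± 0.612 to 22.2 ± 1.12 TPM. Klf3, Klf13 and Zbtb7b were chosen after their values were seen.

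The Myb family was split with DTPA. While Myb was at 0.622 TPM in control and 1.91 TPM with DTPA, its relative Mybl2, a cell cycle gene, fell from 20.1 ± 2.00 to 1.21 ± 0.283 TPM (log2 fold change -3.26, limma adjusted p = 5.75e-11). Mybl1 fell from 5.39 ± 0.165 to 2.08 ± 0.314 TPM. With SA, Klf16 rose from 18.3 ± 0.216 to 26.4 ± 1.73 TPM and Mbd1, a methyl-DNA binding repressor gene, from 96.7 ± 1.62 to 107 ± 2.80 TPM. Of the 16 relatives 3 rose, 1 fell and 12 did not pass with SA, where 15.4% of all genes rose and 6.75% fell. Rescaling gave 3 higher and 3 lower, against 9.80% and 13.1%. With DFO, Klf16 alone among the 16 was called, at 22.2 ± 1.73 TPM, where 10.7% of all genes were called. That call was lost under median-of-ratios scaling, which gave 0 higher and 2 lower with DFO, against 3.56% and 5.35% of all genes.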
